A study of Mus musculus with 8 samples.

Results

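The tripartite motif (TRIM) genes encode a large family of proteins built from a RING finger, B-box zinc fingers and a coiled coil, followed by a C-terminal domain that sets the structural class. Members were all genes whose single symbol in the array's platform annotation was Trim followed by a number, which gave 58 genes of 18193 with a 1-symbol probe set. Each gene was read from the probe set that was brightest on average over the 8 arrays (mean log2 signal), with its other probe sets beside it, 111 in all. Of the 58 genes, 31 passed the filter on dim signals and were tested, and 27 did not.

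RNA came from CD4+ CD8+ double-positive thymocytes of mice aged 4 to 5 weeks and was hybridised to 8 one-colour Affymetrix Mouse 430 2.0 arrays, each with the RNA of 1 mouse. All mice were Tcra-/-, which lack the T-cell receptor alpha chain, and carried Cd4-Cre, a Cre recombinase driven by Cd4 regulatory elements. The Control group (4 arrays) is labelled c-Myb sufficient and the Mutant group (4 arrays) c-Myb deficient. The source names run the other way, with Mybf/f for Control and Mybf/w for Mutant, so every direction below is that of the group titles. Cells were enriched with anti-CD4 magnetic columns. The question of the series is how c-Myb loss alters these cells before positive selection.

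In most TRIM proteins the RING finger recruits a ubiquitin-loaded conjugating enzyme and passes ubiquitin to a target held by the C-terminal domain. Members with a B30.2/SPRY domain include several factors of antiviral defence that interferon induces, while the TIF1 members with a PHD finger and a bromodomain act in the nucleus as transcriptional corepressors. TRIM28 in particular is the platform through which KRAB zinc finger proteins silence retroelements.

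Myb itself did not separate the labels by a loss of signal. Its probe set 1421317_x_at read 10388, 10330, 8405 and 8327 on Control arrays 1 to 4 and 11530, 11754, 11366 and 10512 on Mutant arrays 1 to 4, so all Mutant arrays lay above all Control arrays (two-sided exact permutation p = 0.0286, the minimum for 70 labellings). In the limma fit over probe sets described below, 1421317_x_at differed by 0.28 on the log2 scale and was not called (adjusted p = 0.0783). The probe set 1422734_a_at was also higher on all Mutant arrays (0.36, adjusted p = 0.0298 in limma), and 1450194_a_at overlapped (0.04, adjusted p = 0.813 in limma). The positions of these probes along Myb were not used here, so their levels do not check which group lost the gene. Xist was high on all 4 Mutant arrays (4129 to 5736) and on Control array 1 (4359) and read 23.4 to 36.7 on the other Control arrays. The Xist level thus nearly followed the group, with Control array 1 as the only exception. For the differences between groups below, what goes with Xist and what goes with the group label can hardly be told apart. Mutant array 4 had the highest 18S rRNA control, 7143 against 676 to 1459 elsewhere on the 5' probe set. All 8 measured double-positive markers (Cd4, Cd8a, Cd8b1, Rag1, Rag2, Ptcra, Cd3e and Dntt) passed the dim filter described below, and of these Rag2 fell by 0.41 and Dntt by 0.26 on the log2 scale, with a summed signal of 53894 to 57524 on Control and 51546 to 54899 on Mutant arrays.

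The promoter windows of 4 genes are shown because Trim26 carried the largest difference among the tested members and the other 3 are examples of interferon-responsive members that hold the same motif. Each window is the RefSeq sequence (GRCm38.p6) from 250 bases before to 50 after an annotated start, 5′ to 3′ on the strand of the gene. Capitals mark matches to the interferon-stimulated response element (ISRE) searched on both strands as GAAA, any 2 bases (NN), and GAAA again, so a match on the opposite strand reads TTTC at both ends.
Trim26, chr17:36836896-36837195, plus strand: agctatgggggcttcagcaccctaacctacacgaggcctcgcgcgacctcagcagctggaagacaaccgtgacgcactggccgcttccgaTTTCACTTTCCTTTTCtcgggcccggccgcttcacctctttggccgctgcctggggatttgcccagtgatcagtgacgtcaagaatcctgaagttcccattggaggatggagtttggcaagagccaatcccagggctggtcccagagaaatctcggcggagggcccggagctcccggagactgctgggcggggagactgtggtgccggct
Trim34a, chr7:104244207-104244506, plus strand: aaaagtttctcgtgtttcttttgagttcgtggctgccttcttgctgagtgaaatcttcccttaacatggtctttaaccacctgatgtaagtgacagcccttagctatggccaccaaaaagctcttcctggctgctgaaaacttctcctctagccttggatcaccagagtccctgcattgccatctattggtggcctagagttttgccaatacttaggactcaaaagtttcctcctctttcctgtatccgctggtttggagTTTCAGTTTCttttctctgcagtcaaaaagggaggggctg
Trim30a, chr7:104465144-104465443, minus strand: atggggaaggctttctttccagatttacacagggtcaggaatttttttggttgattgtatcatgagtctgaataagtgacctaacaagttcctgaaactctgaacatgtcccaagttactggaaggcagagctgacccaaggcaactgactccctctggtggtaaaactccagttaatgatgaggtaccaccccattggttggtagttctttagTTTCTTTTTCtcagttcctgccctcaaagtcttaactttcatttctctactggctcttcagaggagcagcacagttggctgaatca
Trim21, chr7:102565433-102565732, minus strand: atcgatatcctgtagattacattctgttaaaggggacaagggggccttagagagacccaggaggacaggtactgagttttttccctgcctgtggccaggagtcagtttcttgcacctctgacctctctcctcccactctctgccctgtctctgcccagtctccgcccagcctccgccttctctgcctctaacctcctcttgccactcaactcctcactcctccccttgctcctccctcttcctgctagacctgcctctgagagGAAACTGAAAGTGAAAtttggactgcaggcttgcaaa
In Trim26 there were 2 overlapping matches, at 160 to 151 and 154 to 145 bases before the start. The Trim34a match lay 11 to 20 bases after the start, and that of Trim30a lay 36 to 27 bases before the start in the window shown. Trim21 had 2 overlapping matches, which reached from 14 to 29 bases after the start. Promoter windows were matched for 47 of the 58 members (61 windows), and 9 genes had an ISRE match: Trim2, Trim5, Trim12a, Trim12c, Trim21, Trim26, Trim30a, Trim30d and Trim34a. The motif was in 10 of the 61 member windows and in 3.44% of all 32851 windows of the table. The windows of Trim5, Trim12a and Trim12c are alike in sequence, as are those of Trim30a and Trim30d, so these matches are not independent. The Myb recognition element, searched as AACNG on both strands, was in 80.3% of all windows and in 55 of the 61 member windows. A match describes letters and shows no binding.

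**Figure D1:**
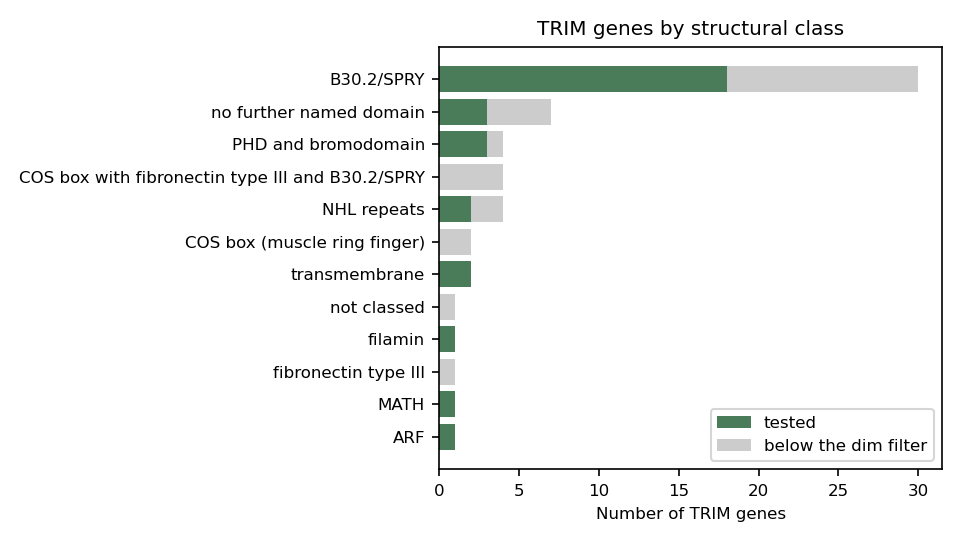
Number of TRIM genes (horizontal axis) in each structural class (vertical axis), divided into genes that passed the dim filter (green) and genes that did not (grey). In the B30.2/SPRY class 18 of 30 genes were tested, and in the COS-box classes none of 6.

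Expression of the family in these thymocytes was uneven between structural classes. The dim filter asked for a signal above 33.8, which is the table's median, on 4 or more of the 8 arrays. By that filter 53.4% of TRIM genes were tested, against 54.6% of all genes. Of the 30 B30.2/SPRY genes 18 passed, and all 3 nuclear TIF1 genes Trim24, Trim28 and Trim33 passed while their relative Trim66 did not. Both transmembrane genes (Trim13 and Trim59) passed, as did Trim37 (MATH domain), Trim23 (ARF GTPase domain) and Trim45 (filamin domain). Of the NHL repeat genes, Trim3 and Trim32 passed and Trim2 and Trim71 did not. Of the 7 genes with no further named domain, Trim8, Trim44 and Trim56 passed. No COS-box gene passed, neither the muscle RING finger genes Trim54 and Trim63 nor the microtubule-associated Trim9, Trim36, Trim46 and Trim67. Of the 27 genes that did not pass, 22 were below the limit on all 8 arrays and 5 (Trim2, Trim30d, Trim46, Trim60 and Trim61) were over it on 1 to 3, up to 70.3 (Trim30d on Mutant array 3). Low signal limits what an array can show and does not show that a gene is silent.

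Between the groups, 1 TRIM gene rose and 1 fell. Trim26 was higher on the Mutant arrays by a factor of 8.80, and Trim11 was lower by a factor of 1.62. Both factors are back-transformed from the fitted difference in log2(signal + 16) and so are ratios of signal + 16. In bulk RNA fewer cells of a type and less RNA per cell cannot be told apart. These 2 calls are 6.45% of the 31 tested members, beside 9.98% called among all 9941 tested genes (5.89% higher and 4.08% lower). The other 29 members did not pass, with log2 differences from -0.43 to 0.55 and adjusted p from 0.0748 to 0.974. In 21 of these 29 the difference was under 0.25 in size. The median difference was -0.05 over the 31 members and 0.02 over all tested genes, and the median size was 0.15 and 0.16. The groups of arrays did not overlap for 3 members (Trim26, Trim11 and Trim8), or 9.68%, beside 17.0% of all tested genes (9.88% higher and 7.11% lower).

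Trim26 encodes a RING and B30.2 ligase whose gene lies among the MHC class I genes on chromosome 17 and which is reported to act on interferon-beta induction. On probe set 1424929_a_at the Control arrays 1 to 4 read 66.4, 100.3, 33.3 and 36.5, and the Mutant arrays 1 to 4 read 512.8, 725.7, 851.6 and 420.1. The lowest Mutant array was thus far above the highest Control array, and the Control arrays lay near the dim limit, 1 of them below it. The means were 59.1 ± 31.2 and 628 ± 197 (SD, n = 4), a log2 difference of 3.14 ± 0.29 (SE, adjusted p = 0.000154). Because Control was dim, the size depends on the pseudocount, with 3.47 at a pseudocount of 1 and 2.48 at 64, while the call held at both.

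The second Trim26 probe set, 1421600_a_at, read 38.9, 33.3, 5.3 and 17.3 on Control and 237.9, 272.5, 362.2 and 182.3 on Mutant arrays. The groups did not overlap, but 1 of 4 Control arrays was over the dim limit and the Control mean of 23.7 was below it. It passed the filter through the Mutant arrays, so its fitted difference of 2.87 is given as a description only. Within the Mutant group both probe sets were highest on array 3 and lowest on array 4. With the Xist level as a covariate, where Control array 1 alone carries the comparison, the Trim26 difference was 2.91 with an adjusted p of 0.0476.

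The measured genes next to Trim26 were dim. The 3 genes directly before it (H2-M10.6, H2-M10.5 and H2-M1) had no 1-symbol probe set. In the gene order of RefSeq (GRCm38.p6) Trim26 is followed by Trim15, Trim10, Trim40 and Trim31, a run of TRIM genes, and all 4 were below the dim limit on all 8 arrays. Trim39, another B30.2 gene of chromosome 17, read 777 ± 149 on Control and 717 ± 93.4 on Mutant arrays (SD, n = 4), a log2 difference of -0.10 ± 0.14 (SE, adjusted p = 0.717).

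**Figure D2:**
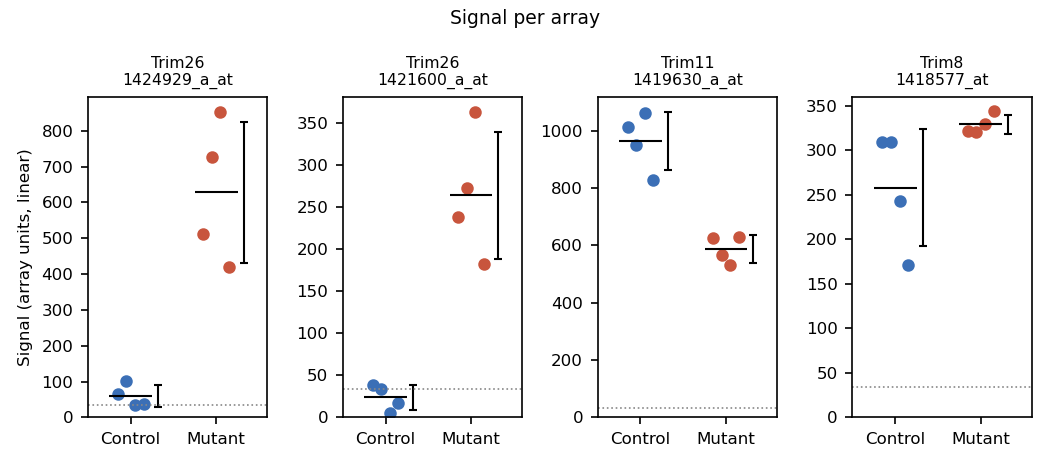
Signal (vertical axis, linear array units) of each array for both Trim26 probe sets, Trim11 and Trim8 in the Control (blue) and Mutant (red) groups, 4 arrays each. Bars are means, error bars are SD and the dotted line is the dim limit of 33.8. Trim26 was at 420.1 or more on Mutant arrays and at 100.3 or less on Control arrays on its chosen probe set.

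Trim11, a B30.2 ligase reported to help clear misfolded proteins, went the other way. Its 1 probe set, 1419630_a_at, read 1014, 949.1, 1062 and 827.5 on Control arrays 1 to 4 and 627.1, 566.1, 531.2 and 630.5 on Mutant arrays 1 to 4. All Mutant arrays were below all Control arrays, and both groups were far above the dim limit. The means of 963 ± 102 and 589 ± 48.4 (SD, n = 4) gave a log2 difference of -0.69 ± 0.10 (SE, adjusted p = 0.00221). With the Xist level as a covariate the difference was -0.77 and was not called (adjusted p = 0.108). In every fit that left out 1 array it was called (adjusted p up to 0.011). Of the genes near Trim11 in RefSeq order, the histone gene H2aw differed by -0.80 (adjusted p = 0.0915), Iba57 by -0.17 and Guk1 by 0.23. The chosen probe set of Trim17, which lies beyond H2aw, was below the limit on all arrays.

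Trim8, a ligase reported to act in NF-kappaB signalling, did not pass although its groups did not overlap. Its chosen probe set 1418577_at read 309.1, 309.5, 242.7 and 170.9 on Control and 321.3, 320.5, 329.9 and 343.8 on Mutant arrays. The Mutant arrays lay close together, just above the highest Control arrays, and the Control group was spread by arrays 3 and 4. The log2 difference was 0.37 ± 0.16 (SE, adjusted p = 0.194). Its other probe sets differed by -0.28 and -0.003, so the probe sets did not share a direction.

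**Figure D3:**
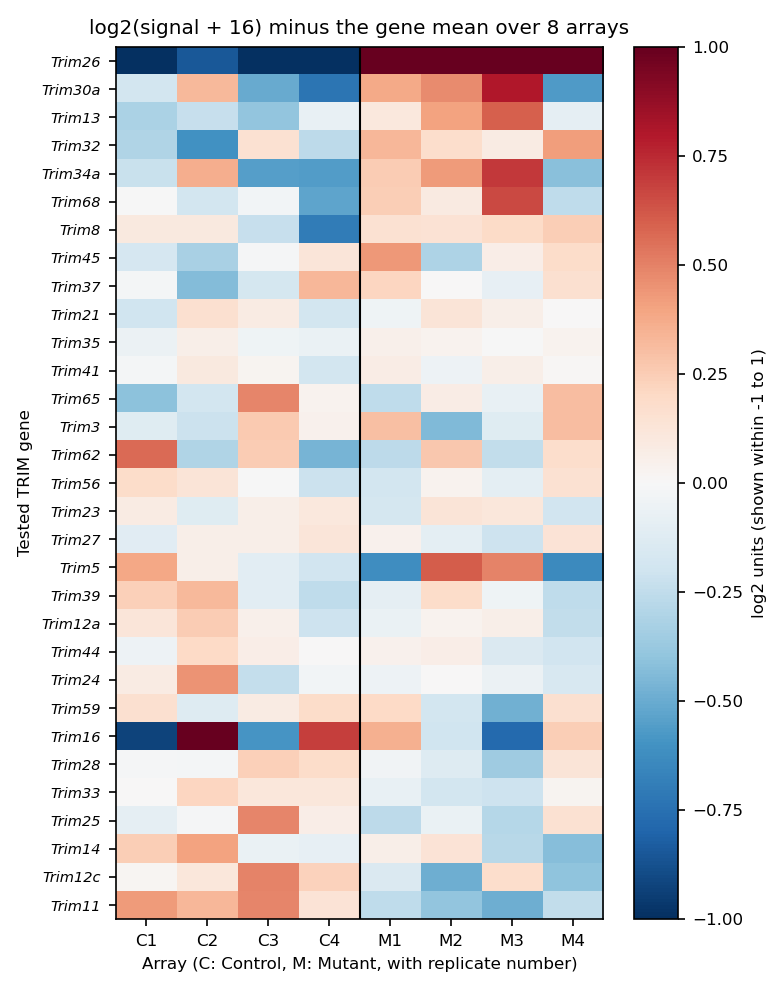
Level of the 31 tested TRIM genes (rows) on each array (columns, C for Control and M for Mutant with the replicate number), as log2(signal + 16) minus the gene's mean over the 8 arrays, with colour limited to -1 to 1. Trim26 divides the groups at the top and Trim11 at the bottom, while Trim30a and Trim34a share high values on C2, M1, M2 and M3.

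None of the tested B30.2 genes of the antiviral cluster on chromosome 7 passed, and Trim30a and Trim34a spread widely between mice. Trim30a, which in mouse cells is reported to restrain NF-kappaB signalling through TAB2 and TAB3, read 725.7, 1036, 575.1 and 491.6 on Control arrays 1 to 4 and 1076, 1152, 1451 and 552.0 on Mutant arrays 1 to 4. Control array 2 was nearly as high as Mutant array 1, and Mutant array 4 lay among the Control arrays. The log2 difference was 0.55 ± 0.28 (SE, adjusted p = 0.268), and 0.41 on its other probe set. Trim34a (1424857_a_at), another gene of the cluster, read 497.8, 756.8, 393.9 and 390.6 on Control and 698.6, 788.7, 962.8 and 432.7 on Mutant arrays. Here Control array 2 was above Mutant array 1, and Mutant array 4 again lay among the Control arrays. The difference of Trim34a was 0.48 ± 0.25 (SE, adjusted p = 0.265). It was 0.10 on the other Trim34a probe set, and 0.35 and 0.13 on probe sets shared with Trim34b. In the fits that left out 1 array, Trim30a differed by 0.37 to 0.83. Among these it was called only without Mutant array 4 (adjusted p = 0.0386), and the adjusted p of the others reached 0.517.

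Other genes of that cluster did not share this pattern. Trim12c (1443858_at) read 503.8, 536.8, 705.8 and 585.8 on Control and 446.5, 349.1, 563.7 and 371.3 on Mutant arrays, lower on 3 of 4 Mutant arrays than on any Control array. Its log2 difference was -0.43 ± 0.16 (SE, adjusted p = 0.11), while its other probe set differed by 0.04. With the replicate number as a block Trim12c had an adjusted p of 0.0415, and with the mean over its probe sets 0.544. Trim12a differed by -0.11 and Trim5 by -0.08, with Trim5 on Mutant arrays ranging from 65.8 to 177.8. Genes of this cluster resemble each other in sequence and a probe set may read more than 1 of them, so single-gene values here are uncertain.

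Of the 10 tested TRIM genes reported to respond to interferon in mouse or human cells, 1 rose (Trim26), 0 fell and 9 did not pass, beside 9.98% of all tested genes called (5.89% higher), so the count is near the background. Their median log2 difference was -0.06, beside 0.02 over all tested genes. Trim21, the cytosolic antibody receptor, read 739 ± 95.8 on Control and 773 ± 41.1 on Mutant arrays (SD, n = 4) and differed by 0.07 ± 0.10 (SE). Trim25, the ligase that modifies the RNA sensor RIG-I, differed by -0.23 ± 0.14 (SE, adjusted p = 0.34) and by -0.23 on its second probe set. Its dimmest probe set, 1426415_a_at, was lower on all Mutant arrays (181.2 to 233.4) than on all Control arrays (255.2 to 411.1), and the difference of -0.62 had an adjusted p of 0.0496 in the fit over probe sets. Trim14, which lacks a RING and acts beside the adaptor MAVS, differed by -0.25 ± 0.16 and Trim56, a partner of STING, by -0.05 ± 0.11. Among the 7 tested genes with an ISRE match, the differences other than that of Trim26 ran from -0.43 to 0.55. No promoter window was matched for Trim11, so the calls are not set against the motif.

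Genes that work with these ligases in nucleic acid sensing and interferon signalling were read beside them. Of 17 tested partners 2 rose (Usp18 and Irf1), 1 fell (Stat2) and 14 did not pass, beside 5.89% of all tested genes called higher and 4.08% lower. Their differences had a median of 0.36 on the log2 scale, against 0.02 over all tested genes. Usp18, the protease that removes ISG15, read 104.1, 82.6, 94.2 and 155.7 on Control and 525.2, 456.2, 653.7 and 342.2 on Mutant arrays, fully apart (log2 difference 2.02 ± 0.21, SE). Irf1, an interferon regulatory factor, rose by 0.44 and Stat2, a subunit of the interferon-activated transcription complex, fell by 0.44 (adjusted p = 0.0484). The Stat2 call was lost in the fit over probe sets (adjusted p = 0.0696), where its other probe set differed by -0.26 (adjusted p = 0.218). Irf7, a factor of interferon induction, read 57.6 to 76.3 on Control and 76.9 to 215.0 on Mutant arrays and missed the threshold (0.82 ± 0.24, adjusted p = 0.0549). The gene of the RNA sensor MDA5, Ifih1, differed by 0.82 ± 0.26 with an adjusted p of 0.0761.

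The same mice stood out in these genes. Among Mutant arrays, array 3 was the highest for 5 of the 10 interferon-responsive TRIM genes and for 12 of the 17 partners, and array 4 the lowest for 6 and 11. Over all tested genes array 3 was highest in 25.3% and array 4 lowest in 30.6%. Among Control arrays, array 2 was the highest for 6 of the 10 and 10 of the 17, beside 30.8% of all genes. Control array 4 was the lowest of its group for 6 of the 10 and 7 of the 17, beside 28.8% of all genes. The higher 18S rRNA signal of Mutant array 4 went with these low values, and its part in them was not tested.

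**Figure D4:**
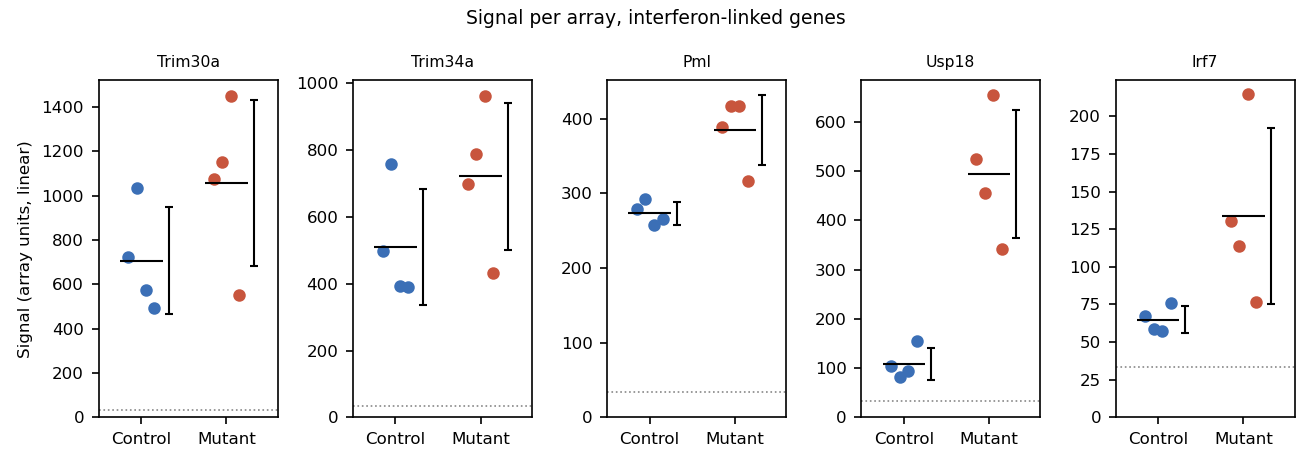
Signal (vertical axis, linear array units) of each array for Trim30a, Trim34a, Pml, Usp18 and Irf7 in the Control (blue) and Mutant (red) groups, 4 arrays each, with means, SD and the dim limit of 33.8 (dotted). Trim30a and Trim34a overlapped between the groups, while Pml, Usp18 and Irf7 did not.

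Of the 5 family relatives that carry other names, Pml and Mefv could be tested and Pml rose. Pml, the organiser of nuclear bodies and also known as TRIM19, read 278.3, 292.9, 258.1 and 264.9 on Control and 388.9, 416.5, 416.2 and 316.7 on Mutant arrays. All Mutant arrays were higher, again least so array 4, and the difference was 0.46 ± 0.11 (SE, adjusted p = 0.0236). Its other probe sets differed by 0.25 and 0.46 and overlapped. Mefv differed by -0.07, and Mid2 and Cmya5 were below the dim limit on all arrays.

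The nuclear TIF1 genes Trim24, Trim28 and Trim33 were all slightly lower in mean on Mutant arrays on their chosen probe sets, and 0 of 3 passed. Trim28, the KRAB corepressor, read 3685, 3656, 4379 and 4204 on Control and 3625, 3387, 2901 and 4046 on Mutant arrays, with overlap between the groups. The difference was -0.20 ± 0.10 (SE, adjusted p = 0.283), and -0.18 on its other probe set. Trim33, which acts on SMAD4 in TGF-beta signalling, differed by -0.22 ± 0.09 (SE, adjusted p = 0.133). On its second probe set, 1455189_at, Control read 513.7 to 608.5 and Mutant 406.9 to 471.3, without overlap, and the difference of -0.33 had an adjusted p of 0.0707 over probe sets. Trim24, a nuclear receptor coregulator, differed by -0.13 ± 0.13. Its other probe sets differed by 0.007 and 0.05, so they did not share that direction.

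Among 16 tested partners of these corepressors 2 rose, 1 fell and 13 did not pass, beside 5.89% of all tested genes called higher and 4.08% lower. Their median log2 difference was -0.04, and 0.02 over all tested genes. Smad3, a TGF-beta effector, rose by 0.73 ± 0.11 (SE) from 569.2 to 667.6 on Control to 853.7 to 1180 on Mutant arrays. Its other probe sets differed by 0.06 and 0.42, and overlapped. Chd3, a helicase of the NuRD complex, rose by 0.89, and Smad2, the close relative of Smad3, fell by 0.34. The Smad2 call was lost in the fit over probe sets (adjusted p = 0.0506), and its other probe set overlapped (-0.22, adjusted p = 0.595). The histone methyltransferase gene Setdb1 differed by -0.14 (adjusted p = 0.312), with all Mutant arrays just below all Control arrays, Cbx5, which encodes heterochromatin protein HP1 alpha, by 0.17 and the deacetylase gene Hdac1 by 0.01.

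Trim32, an NHL repeat ligase whose human gene is mutated in a limb-girdle muscular dystrophy, had the lowest adjusted p among members not called. It read 119.1, 93.8, 169.2 and 123.0 on Control and 194.2, 172.1, 160.8 and 206.6 on Mutant arrays. Mutant array 3 alone fell below the highest Control array, array 3, and the difference was 0.51 ± 0.16 (SE, adjusted p = 0.0748). In the fits that left out 1 array, Trim32 differed by 0.39 to 0.64. Among these it was called only without Control array 3 (adjusted p = 0.0357), and the adjusted p of the others reached 0.166.

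Trim13, a ligase of the endoplasmic reticulum membrane, read 84.4, 90.6, 79.0 and 103.0 on Control and 118.8, 149.4, 173.8 and 101.6 on Mutant arrays. Mutant array 4 lay just below Control array 4, and the other 3 Mutant arrays were higher than all Control arrays. The difference was 0.51 ± 0.17 (SE, adjusted p = 0.0802), and 0.40 to 0.63 in the fits that left out 1 array. Among these Trim13 was called only without Mutant array 4 (adjusted p = 0.0301), and the adjusted p of the others reached 0.2. The other transmembrane gene, Trim59, differed by -0.15 on its chosen probe set and by -0.57 on its other one (adjusted p = 0.0815 over probe sets).

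The single members of the small classes did not pass. Trim23 (ARF domain) read 405.7 to 478.4 on Control and 387.2 to 485.9 on Mutant arrays and differed by -0.06 ± 0.11 (SE). Trim37, a MATH domain ligase whose human gene is mutated in Mulibrey nanism, differed by 0.15 ± 0.15 and Trim45 (filamin domain) by 0.19 ± 0.17. Across the 5 Trim37 probe sets, all past the filter, the differences ran from -0.07 to 0.40. The remaining tested members were Trim3, Trim16, Trim27, Trim35, Trim41, Trim44, Trim62, Trim65 and Trim68. Of these Trim68 had the highest difference, 0.37 ± 0.22 (adjusted p = 0.337), and Trim35 read 1312 ± 54.3 on Control and 1364 ± 22.4 on Mutant arrays (SD, n = 4). Trim16 had the highest within-group SD of the tested members, 1.01 on the log2 scale in Control, where it ran from 22.6 to 151.9.

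**Figure D5:**
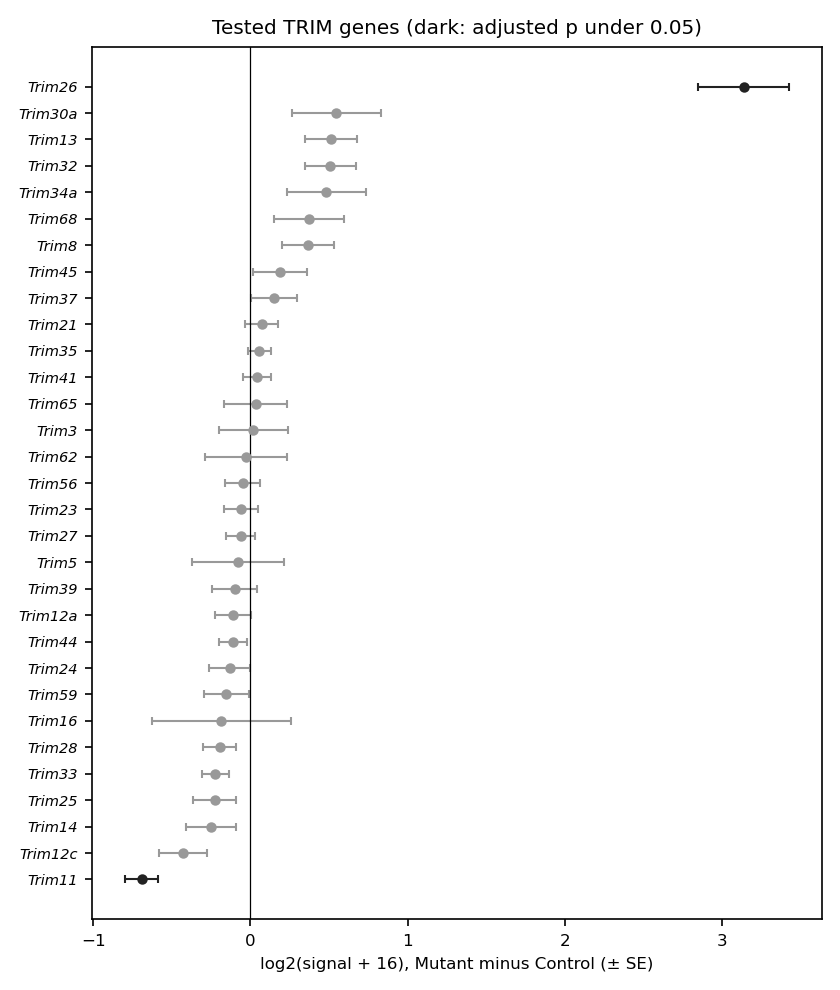
Difference in log2(signal + 16) between Mutant and Control (horizontal axis, point and SE) for the 31 tested TRIM genes (vertical axis, in order of the difference), with genes past an adjusted p of 0.05 in dark. Trim26 stands at 3.14 and Trim11 at -0.69, and the other 29 lie between -0.43 and 0.55.

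Probe sets of a gene mostly went the same way. Of 29 other probe sets that passed the filter, from 18 members, 20 had the sign of the chosen probe set and 9 the opposite one. Called over probe sets, where 6.98% of all 19100 were called, were the second Trim26 probe set, with the limit given above, and the dimmest of the 3 Trim25 probe sets. The groups did not overlap for 4 of the 29 (Trim25, Trim26, Trim33 and Trim37), or 13.8%, beside 15.2% of all tested probe sets. The median within-group SD on the log2 scale was 0.24 over tested members and 0.18 over all tested genes.

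Among 12 tested ubiquitin conjugating enzymes that pair with RING ligases, 1 fell and 11 did not pass, which is near the 9.98% of all tested genes called (4.08% lower). Their median log2 difference was -0.06, and 0.02 over all tested genes. Ube2d1 read 841.8 to 1127 on Control and 646.9 to 743.5 on Mutant arrays, without overlap, and fell by 0.41 ± 0.11 (SE, adjusted p = 0.0352). Its paralogs Ube2d2a and Ube2d3 differed by 0.11 and -0.07, and Ube2n, the enzyme of K63-linked chains, by -0.05.

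Markers of other cell types were read beside these results. Of 8 macrophage and dendritic cell markers 5 passed the filter and Ctss rose by 1.0, with a summed signal of 356.0 to 747.4 on Control and 657.3 to 880.2 on Mutant arrays. Siglech was below the limit on all arrays, and Csf1r, Cd68 and Adgre1 differed by -0.19, -0.09 and -0.11. The 5 gamma-delta, NKT and NK cell markers summed to 2026 to 2513 and 3052 to 4220, mostly through Gzma, which rose by 0.75, with Ncr1 and Zbtb16 below the limit. The 3 erythroid markers summed to 231.5 to 386.6 and 986.3 to 1470 through Car2, which rose by 2.27, while Hba-a2 differed by -0.12. The 4 B cell markers summed to 6638 to 6936 and 7147 to 8155 through Ighm, with Cd79a below the limit. The 4 granulocyte markers summed to 37.4 to 82.3 and 81.3 to 219.3. Only 1 of them passed the filter, S100a8, and it was not called (adjusted p = 0.176). The 6 stroma markers summed to 713.3 to 782.3 and 492.6 to 726.4, mostly through Pecam1, which was not called (-0.36, adjusted p = 0.139). Foxn1, Col1a1 and Psmb11 were below the limit on all arrays. The 4 skeletal muscle markers summed to 48.8 to 80.0 and 35.5 to 83.4, with 0 past the filter. The part of these markers in the Trim26, Trim11 and Pml differences was not tested.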

How the data were processed

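One array was run per mouse, 4 labelled Control and 4 labelled Mutant. Each value of the deposited table is a linear intensity (signal) of 1 probe set on 1 array. The submitters' processing notes name GCOS, the Affymetrix array software, with no version or settings. The 2% trimmed mean was 250.0 on all 8 arrays, so each had been scaled to a common level, which removes differences in total RNA per cell. For arrays, their number and the signal over background limit the precision. Detection calls and scan dates were not used here, so batches were not tested.

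From there 64 control probe sets of 45101 were left out, and the 34945 with 1 symbol in the platform annotation were kept, with current symbols from RefSeq (GRCm38.p6) through the gene identifier (34741 matched). Values were used as log2(signal + 16), which understates the change of dim genes. A probe set passed when its signal exceeded 33.8, the table median, on at least 4 of 8 arrays, and each gene was read from its passing probe set with the highest mean, which was the chosen probe set for every tested member. This left 9941 genes. Mutant minus Control was fitted over all of them with limma 3.58.1 in R 4.3.3 (lmFit, eBayes with a variance trend, two-sided) and Benjamini-Hochberg adjustment over all 9941, with a threshold of 0.05. A second fit ran over the 19100 passing probe sets. Adjusted p-values are from limma. For single genes an exact permutation test (two-sided) ran through all 70 labellings. Figures were made with matplotlib 3.10.9.

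Structural classes were assigned from general knowledge of the family. The members, gene lists and alternatives were chosen with earlier results of these data known. The rule for named genes takes called members, members whose groups do not overlap, the 3 largest differences in each direction among members not called, the brightest member of each structural class otherwise unnamed, and up to 4 called genes of each list. Other genes named were added after their values were seen. Alternatives changed the pseudocount, normalization, filter, probe set choice, variance model and array weights, added the replicate number or the Xist level (cut at a signal of 1000) to the fit, or left out 1 array. The replicate numbers were not taken as a pairing.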

Additional observations from a re-analysis of the deposited data

How the results depend on the processing

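Trim26 and Trim11 were the 2 members called in the reported fit. The count of called members was 1 with the filter on all 8 arrays, which removes Trim26 because Control array 3 was below the limit. It was 0 without probe sets ending in _x_at, _s_at or _a_at, since all probe sets of Trim26 and Trim11 end in _a_at. It was 6 with array weights, which added Trim12c, Trim13, Trim30a and Trim34a (1745 genes called in all, against 992) and 1 with the Xist level as covariate (26 genes in all). All genes called numbered 494 without Control array 3, 515 without Mutant array 2, 578 without Mutant array 3 and 605 without Mutant array 1. Leaving out 1 array gave 2 to 4 called members, with 4 without Mutant array 4 (Trim13 and Trim30a added), 3 without Control array 3 (Trim32 added) and 3 without Mutant array 3 (Trim12c added). In every fit without 1 array Trim26 differed by 2.96 to 3.38 and Trim11 by -0.76 to -0.65, both called. With the replicate block 3 members were called, Trim12c added. Correlations of the deviations of same-numbered arrays were 0.004, 0.17, -0.27 and 0.36. These few values cannot decide whether equal numbers mark a pairing of the mice. Without the filter Trim66 was called as well, with all its signals below the dim limit. Of 252 values of the 13 named members under alternatives, 241 kept direction and side of the threshold, 8 passed it and 1 (Trim11 with Xist) lost it. In 2 the sign turned, Trim23 to 0.10 with the mean over probe sets and Trim37 to -0.066 without the suffixed probe sets, both uncalled. Other causes were not tested. Signals near 33.8 limit the size given for Trim26.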

Other observations

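Mid1, which encodes the microtubule-associated relative TRIM18, was measured by 3 probe sets and did not pass the filter. Its probe set 1438239_at read 241.3, 241.5 and 272.0 on Control arrays 1 and 2 and Mutant array 1, and 2.0 to 23.4 on the other 5 arrays. The difference runs within both groups, and its 2 other probe sets were at 17.9 or less on all arrays.

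Probe set 1435865_at, annotated to both H2aw and Trim17 and so outside the member rule, read 648.3, 425.3, 1013 and 583.5 on Control and 146.2, 390.2, 286.2 and 281.4 on Mutant arrays. All Mutant arrays were lower (log2 difference -1.23, two-sided exact permutation p = 0.0286, the smallest that 70 labellings can give). The probe set annotated to H2aw only, 1435866_s_at, differed by -0.80 (adjusted p = 0.0915 in limma). Whether it reads other genes as well was not tested. Both probe sets annotated to Trim17 only were below the dim limit on all arrays. Probe set 1456494_a_at, shared by Trim30d and Trim30a, read 94.6 to 204.8 on Control and 97.8 to 324.9 on Mutant arrays, highest on Mutant array 3.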
